A study of Mus musculus with 2 samples.

Results

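The collagen prolyl and lysyl hydroxylases are 9 genes, P3h1, P3h2, P3h3, P4ha1, P4ha2, P4ha3, Plod1, Plod2 and Plod3, followed here across 2 zones of mouse cartilage. They were taken by name, as the probe sets carrying one of these symbols alone, with the older symbols Lepre1, Leprel1 and Leprel2 accepted for the P3h genes. The 9 genes had 13 probe sets, out of 18193 named genes and 45101 probe sets in all. Both arrays were of wild-type C57BL/6J mice at the E17.5 embryo stage. The first held RNA of cartilage enriched in columnar and hypertrophic chondrocytes (the Columnar/Hypertrophic array), and the other held RNA of cartilage enriched in round chondrocytes (the Round array). RNA of 3 cartilage portions was pooled for each array and no array was repeated, so no value has a replicate error, no difference was tested, and precision is limited by there being 1 array per zone. The portions were cut from tissue rather than sorted as cells, so fewer cells of a type and less RNA per cell cannot be told apart.

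Collagen chains are modified inside the endoplasmic reticulum before they wind into a triple helix. Prolyl 4-hydroxylases make the 4-hydroxyproline that keeps the helix stable at body temperature, prolyl 3-hydroxylases modify a small number of other prolines, and lysyl hydroxylases make the hydroxylysine that carries sugars and forms the crosslinks between collagen molecules. All of them use oxygen, iron, 2-oxoglutarate and ascorbate. Cartilage depends on these enzymes because type II collagen is its main protein, and hypertrophic chondrocytes add type X collagen.

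The zone labels were checked against marker genes. Of 7 measured genes that mark prehypertrophic or hypertrophic cells, 7 were higher in Columnar/Hypertrophic cartilage by 2-fold or more, and the signals of all 9 genes with a probe set summed to 42323 there and 3060 on the Round array. Mmp13, which marks the last hypertrophic cells and bone, was under the detection floor on both arrays. So was Ibsp by the probe set used, while its other probe set was above the floor on the Columnar/Hypertrophic array alone, at least 0.30 log2 units higher there. Of 8 round-zone markers, 7 were lower in Columnar/Hypertrophic cartilage by 2-fold or more. Markers of perichondrium, fibroblasts and tendon were mostly lower there, 6 of 9 by at least 2-fold. Their summed signals were 52830 on the Columnar/Hypertrophic array and 108284 on the Round array. Lum alone was higher, with 25256 on the Columnar/Hypertrophic array, a large part of that sum, and 22381 on the Round array (0.17). The floor was a MAS5 signal of 100.5, the 95th percentile of receptor genes of smell and taste. Of the markers of other cell types, 0 of 4 erythroid, 1 of 6 endothelial, 1 of 6 osteoclast, 3 of 8 skeletal muscle, 3 of 6 leukocyte and 3 of 6 osteoblast genes were above it on at least 1 array. Among these, the muscle gene Tnnt3 was at least 4.26-fold higher and the myeloid gene Lyz2 2.25-fold higher in Columnar/Hypertrophic cartilage. The other measured muscle genes, Acta1 (-0.28 on the log2 scale) and Ckm (-0.035), were lower there. So were the other measured leukocyte genes, Cd68 (-0.37) and Csf1r (-0.56), and all of these but Csf1r are bounds. Sp7, which is also on the hypertrophic list, was 11.4-fold higher in Columnar/Hypertrophic cartilage, and Col1a1 was 2.40-fold lower there.

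All 9 hydroxylase genes lay above the floor on both arrays, and 1 of them, P3h2, differed by at least 2-fold. It was higher on the Columnar/Hypertrophic array. Across all 11675 genes above the floor on at least 1 array, 4.27% were higher by that much and 6.33% were lower (498 and 739 genes, or 934 and 409 with equal array medians), so 1 higher and 0 lower among 9 is not a count that sets these genes apart. The median log2 difference (Columnar/Hypertrophic minus Round) was 0.13 over the 9 hydroxylase genes and -0.053 over all genes, and the hydroxylase median fell to the other side of 0 (-0.049) when a lowess trend on signal was taken out. Without P3h2, the other 8 lay between -0.44 and 0.66. For scale, the differences of several probe sets of 1 gene scattered with an SD of 0.26 among 1320 genes with mean signals of at least 1000, as all 9 genes had. This SD measures disagreement between probe sets on the same arrays and not the spread between animals.

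**Figure D1:**
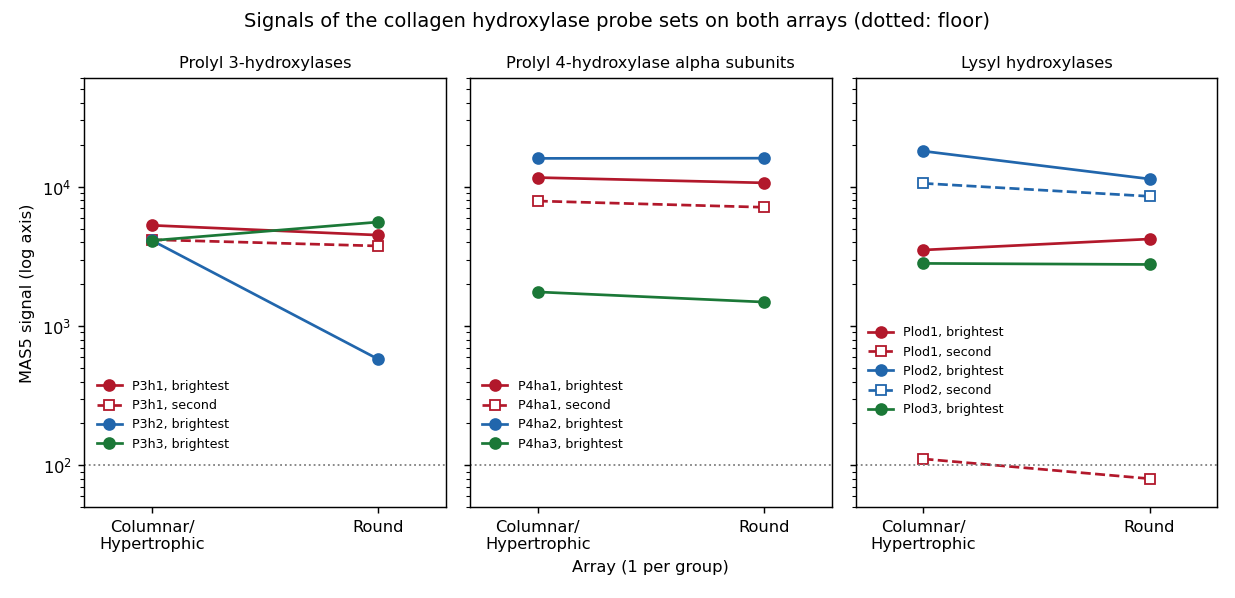
MAS5 signal (vertical, log axis) of the 13 probe sets of the hydroxylase genes on the Columnar/Hypertrophic array (left) and the Round array (right), with filled circles for the brightest probe set of each gene, open squares for the second and a dotted line at the floor of 100.5. P3h2 lies at 4116 on the Columnar/Hypertrophic array and 578 on the Round array, and the other lines stay within 2-fold.

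The prolyl 3-hydroxylase genes differed most among themselves. P3h2 encodes the enzyme that in mice modifies type IV collagen of basement membranes, among other collagens. Its signal was 4116 on the Columnar/Hypertrophic array and 578 on the Round array, 7.12-fold higher (2.83 on the log2 scale). This was the 23rd highest difference of 10249 genes above the floor on both arrays. Of the 1940 genes with a mean signal within 0.5 log2 units of that of P3h2, 5 differed by as much or more in either direction, P3h2 included. P3h2 had 1 probe set, so a second reading of the same RNA was not at hand. Its difference lay on the same side as the hypertrophic markers given above, and their part in it was not tested.

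P3h1 and P3h3 did not follow P3h2. P3h1 works in a complex with Crtap and cyclophilin B (Ppib) on type I and type II collagen, and its loss causes recessive osteogenesis imperfecta in humans. Its 2 probe sets gave 5289 and 4172 on the Columnar/Hypertrophic array, against 4501 and 3761 on the Round array. The differences were 0.23 and 0.15, both within the probe set SD of 0.26. P3h3, which in mice acts with P3h4 and lysyl hydroxylase 1, had a signal of 4113 on the Columnar/Hypertrophic array and 5585 on the Round array. It was 1.36-fold lower (-0.44), the lowest value of the 9 genes, and of 728 genes of like signal 30.9% differed by as much or more. The markers of fibrous tissue were mostly lower on the same array, and their part in the P3h3 value was not tested.

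The P4ha genes encode the catalytic alpha subunits of prolyl 4-hydroxylase and showed nearly equal levels in both zones. P4ha2, the main isoform of chondrocytes, had signals of 16002 on the Columnar/Hypertrophic array and 16052 on the Round array, a difference of -0.0045. P4ha1, the main isoform of most other cells, had 11653 and 7905 by its 2 probe sets on the Columnar/Hypertrophic array, against 10678 and 7132 on the Round array. The 2 probe sets gave 0.13 and 0.15. P4ha3, the third isoform, had 1758 on the Columnar/Hypertrophic array and 1488 on the Round array (0.24). The direction of P4ha1 and P4ha2 was not settled, since P4ha1 gave -0.06 after quantile normalization and -0.06 after lowess centring, while P4ha2 gave 0.28 with equal array medians.

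P4ha1 and P4ha2 are induced by low oxygen in human cells through the HIF-1 transcription factor, and growth plate cartilage is poor in oxygen, so their promoters are shown with the short core sequence that HIF-1 binds. The promoter of P3h3, the gene with the lowest difference, is shown beside them. The windows run from 250 bases before to 50 bases after the start site (RefSeq, build GRCm38.p6). They lie at chr10:59323046-59323345 on the plus strand (P4ha1), chr11:54100674-54100973 on the plus strand (P4ha2) and chr6:124857668-124857967 on the minus strand (P3h3). Capitals mark ACGTG or GCGTG on either strand, where matches may overlap, and the TATA box word TATAAA on either strand.
P4ha1: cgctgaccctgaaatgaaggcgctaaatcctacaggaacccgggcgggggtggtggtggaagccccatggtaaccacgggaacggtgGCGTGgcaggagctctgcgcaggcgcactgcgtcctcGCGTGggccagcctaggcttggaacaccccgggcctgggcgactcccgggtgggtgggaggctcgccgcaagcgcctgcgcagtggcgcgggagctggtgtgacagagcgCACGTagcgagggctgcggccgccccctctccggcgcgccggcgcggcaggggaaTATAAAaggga
P4ha2: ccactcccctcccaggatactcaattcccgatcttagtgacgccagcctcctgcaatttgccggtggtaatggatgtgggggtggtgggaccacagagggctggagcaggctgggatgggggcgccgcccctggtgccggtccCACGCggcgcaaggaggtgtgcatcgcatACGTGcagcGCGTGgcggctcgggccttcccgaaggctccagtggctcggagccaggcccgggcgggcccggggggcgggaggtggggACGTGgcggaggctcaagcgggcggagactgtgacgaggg
P3h3: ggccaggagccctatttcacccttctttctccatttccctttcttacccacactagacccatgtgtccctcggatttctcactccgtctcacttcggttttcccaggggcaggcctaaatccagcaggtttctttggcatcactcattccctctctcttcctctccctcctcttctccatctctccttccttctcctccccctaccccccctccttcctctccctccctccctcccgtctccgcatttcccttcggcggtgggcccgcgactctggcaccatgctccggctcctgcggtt

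P4ha1 held 3 matches of the HIF core and 1 TATA word, which began at base 290 of its window, after the start site. P4ha2 held 4 matches of the core, and P3h3 held 0 of either. Of the 9 genes, 7 had 8 windows in the table, and P3h2 and Plod2 had no entry. The core was present in 6 of these 8 windows, both windows of P3h1 included, against 43.8% of 32851 mouse windows of the same length. TATAAA was present in 2 of 8, against 13.6%. P4ha3, with a difference of 0.24, also held 0 core matches, and Plod1, at -0.26, held 2. The windows of the hydroxylase genes were between 53.3% and 70.3% GC, and the GC of the other mouse windows was not measured. These matches describe letters and not bound sites.

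Among the lysyl hydroxylases, Plod2 had the highest difference. Plod2 encodes the enzyme that modifies lysines at the ends of collagen chains, from which the stable crosslinks of skeletal tissue are formed. Its brighter probe set had 18033 on the Columnar/Hypertrophic array and 11382 on the Round array, 1.58-fold higher (0.66). Its other probe set had 10588 on the Columnar/Hypertrophic array and 8548 on the Round array, 1.24-fold higher (0.31). Both were higher in the columnar and hypertrophic zone but by unequal amounts, and neither reached 2-fold. Of 182 genes of like signal, 12.1% differed by as much as the brighter probe set or more. The hypertrophic markers moved the same way, and their part in the Plod2 value was not tested.

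Plod1 encodes lysyl hydroxylase 1, which modifies lysines within the helix. Its brighter probe set had 3520 on the Columnar/Hypertrophic array and 4217 on the Round array (-0.26). Its other probe set had 111 on the Columnar/Hypertrophic array and 80.2, under the floor, on the Round array, which is too close to the floor to give a direction. The brighter probe set gave -0.36 after quantile normalization and -0.36 after lowess centring, but 0.02 with equal array medians. Plod3 encodes lysyl hydroxylase 3, which also adds sugars to hydroxylysine. It had 2819 on the Columnar/Hypertrophic array and 2770 on the Round array, a difference of 0.025 that became -0.04 after quantile normalization and -0.05 after lowess centring.

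**Figure D2:**
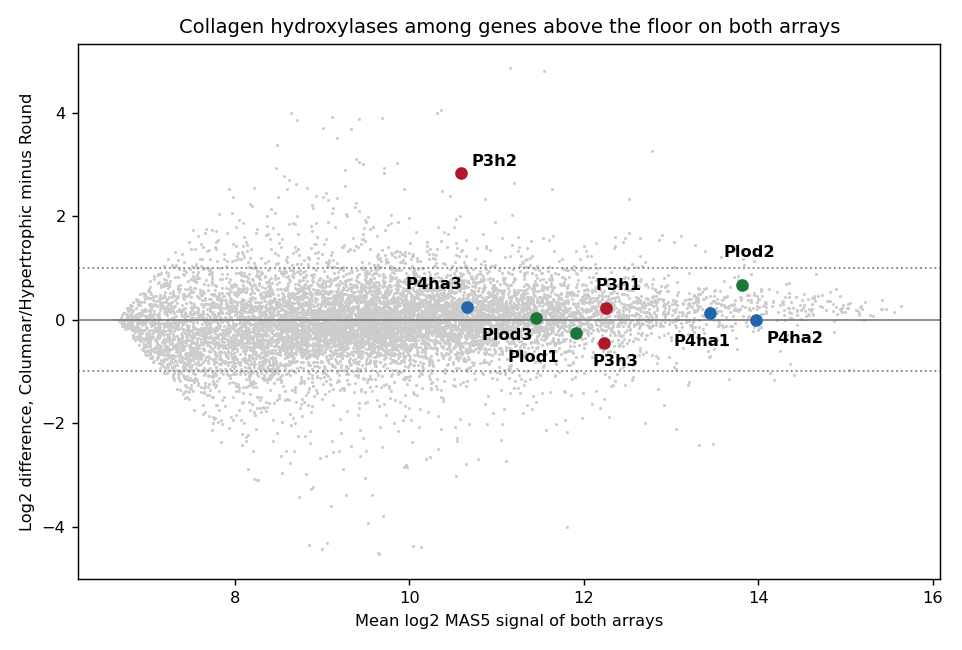
Log2 difference (vertical, Columnar/Hypertrophic minus Round) against the mean log2 signal of both arrays (horizontal) for 10249 genes above the floor on both arrays (grey), with the 9 hydroxylase genes labelled and coloured by family (red P3h, blue P4ha, green Plod). P3h2 lies at 2.83, above nearly all genes of its signal, and the other 8 lie between the dotted lines that mark 2-fold.

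The balance of the enzymes within a family can be compared without the scaling between arrays, because the ratio of 2 signals on 1 array loses any common factor. The ratio of P3h2 to P3h3 was 9.67-fold higher in Columnar/Hypertrophic cartilage (3.27 on the log2 scale), and that of P3h1 to P3h2 changed by -2.60. The ratio of P3h1 to P3h3 changed by 0.67. In the lysyl hydroxylases the ratio of Plod2 to Plod3 was 1.56-fold higher, and that of Plod1 to Plod2 changed by -0.92. In the prolyl 4-hydroxylases the 3 ratios changed by -0.24 to 0.13. After lowess centring these values were 3.36, -2.69, 0.67, 0.51, -0.82 and -0.42 to 0.16 in the same order. The 9 ratios rest on the brightest probe sets and share genes, so they are not independent of each other.

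The partners of the enzymes were close to level. P4hb, the beta subunit shared by all prolyl 4-hydroxylases, had 33336 on the Columnar/Hypertrophic array and 30213 on the Round array (0.14), and the ratio of P4ha1 to P4hb changed by -0.016. Crtap had 13775 on the Columnar/Hypertrophic array and 12395 on the Round array (0.15). Ppib had 23110 and 22753 in the same order (0.022), and the ratio of P3h1 to Crtap changed by 0.081. P3h4, the partner of P3h3, had 9494 on the Columnar/Hypertrophic array and 7798 on the Round array (0.28), so that the ratio of P3h3 to P3h4 changed by -0.73. The galactosyltransferase genes Colgalt1 and Colgalt2, whose enzymes act on the hydroxylysine made by the Plod proteins, had differences of 0.55 and 0.45, and a second probe set of Colgalt1 gave 1.48. None of these 6 genes reached 2-fold by its brightest probe set, with a median of 0.22 (0.037 after lowess centring). All 6 lay above 0 as scaled, but lowess centring put P4hb at -0.12, Crtap at -0.044 and Ppib at -0.21. Fkbp10, whose protein assists Plod2, was not analysed here.

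The median of 20 chaperone and export genes was 0.26 (0.029 after lowess centring). Of these 20, 1 was at least 2-fold higher and 0 lower, against 4.27% and 6.33% of all genes. That gene was Fkbp11, an ER peptidyl-prolyl isomerase, with 3734 on the Columnar/Hypertrophic array and 1849 on the Round array (1.01, but 0.94 after lowess centring, and 0.26 by another probe set). Serpinh1, the collagen chaperone HSP47, had 36502 on the Columnar/Hypertrophic array and 26672 on the Round array (0.45). Of 8 measured genes of procollagen cleavage and crosslinking, 1 was higher and 1 lower by at least 2-fold and 6 lay within it. Their median was -0.40, but -0.12 with equal array medians, -0.14 with the mean of probe sets and 0.023 with the next brightest probe set. Both were lysyl oxidase genes, whose enzymes turn lysine and hydroxylysine into crosslinks. Loxl4 had 1154 on the Columnar/Hypertrophic array and 111 on the Round array, 10.4-fold higher (3.38 on the log2 scale). A second probe set gave 1.79. The Round signal of 111 was close to the floor of 100.5, so the size of this fold is uncertain. Loxl1 lay below the floor in Columnar/Hypertrophic cartilage (54.6) and had 684 in Round cartilage, at least 6.81-fold lower.

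**Figure D3:**
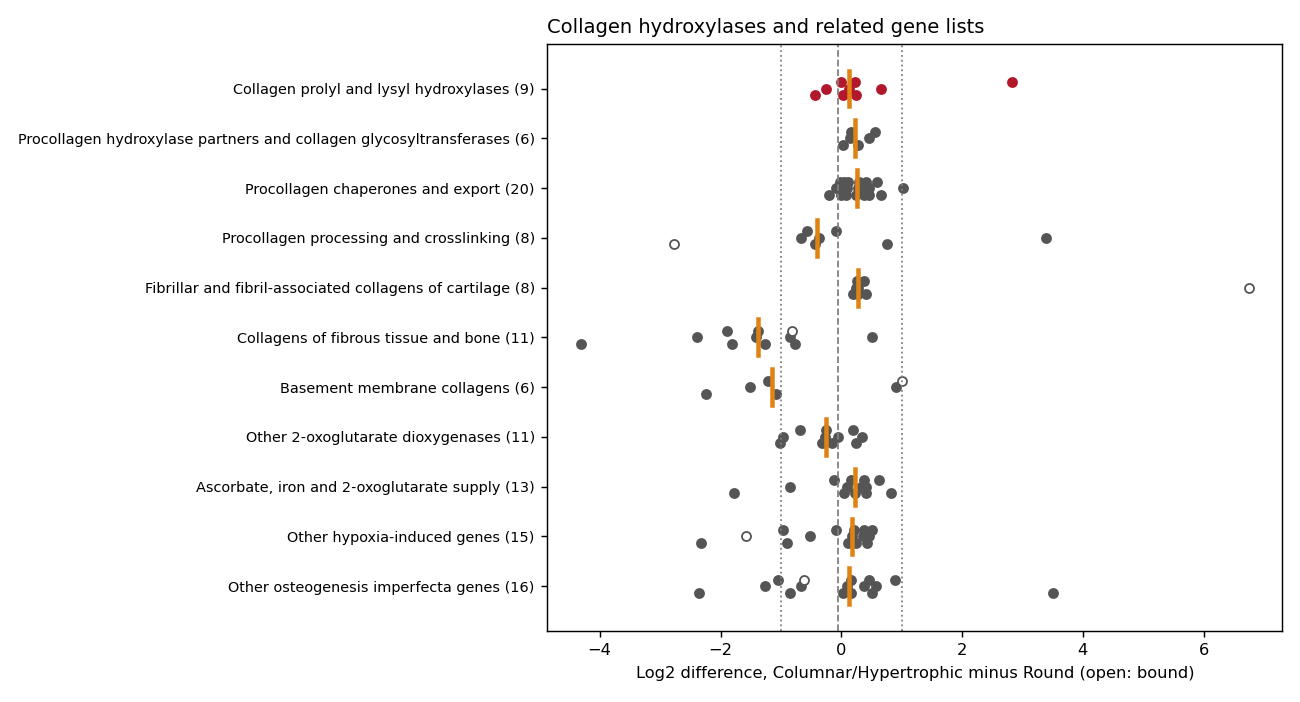
Log2 difference (horizontal, Columnar/Hypertrophic minus Round) of the hydroxylase genes (red) and of 10 lists of related genes (grey), 1 point per gene above the floor on at least 1 array, with the number of genes in brackets, open points for bounds, orange bars for list medians, a dashed line for the median of all genes (-0.053) and dotted lines at 2-fold. The hydroxylase, partner, chaperone and cartilage collagen lists centre between 0.13 and 0.27 (between -0.049 and 0.037 after lowess centring), while collagens of fibrous tissue centre at -1.38 and those of basement membranes at -1.15.

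Some collagen substrates differed by more than most of the enzymes. Of 8 collagen genes of cartilage, 7 lay within 2-fold, between 0.19 and 0.42 (between -0.082 and 0.22 after lowess centring), among them Col2a1 with 37936 on the Columnar/Hypertrophic array and 33307 on the Round array (0.19). The eighth was Col10a1, the type X chain, at least 108-fold higher. Of 11 collagen genes of fibrous tissue and bone, 7 were at least 2-fold lower and 0 higher, with a median of -1.38. Col3a1 was 5.26-fold lower with 4986 on the Columnar/Hypertrophic array and 26223 on the Round array, Col1a1 2.40-fold lower with 696 and 1672 in that order, and Col1a2 1.80-fold lower, with -1.98 and -1.63 from 2 dimmer probe sets. The other 5 of the 7 were Col14a1 (-4.31), a collagen of fibril surfaces, the type VI genes Col6a2 (-1.90) and Col6a1 (-1.38), and the type V genes Col5a1 (-1.81) and Col5a2 (-1.42). Col14a1 was close to the floor on the Columnar/Hypertrophic array (119) and gave -2.53 by a second probe set. Another type VI gene, Col6a3, was the only 1 of the 11 above 0, with 12239 on the Columnar/Hypertrophic array and 8615 on the Round array (0.51). Markers of perichondrium, fibroblasts and tendon, which share Col1a1, Col1a2 and Col3a1 with this list, were mostly lower in the same cartilage. Their part was not tested. Of 6 measured basement membrane collagen genes, 4 were at least 2-fold lower, and Col18a1 gave a bound just past 2-fold higher (203 on the Columnar/Hypertrophic array, and 88.6, under the floor, on the Round array). Of all genes, 6.33% were lower by 2-fold and 4.27% higher.

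P3h2 and the 4 measured type IV collagen genes lay on opposite sides of 0. Col4a1 had 131 on the Columnar/Hypertrophic array and 619 on the Round array, 4.71-fold lower (a second probe set gave -1.81), and Col4a2 had 513 on the Columnar/Hypertrophic array and 1090 on the Round array, 2.13-fold lower. The ratio of the P3h2 signal to that of Col4a1 was 33.5-fold higher in Columnar/Hypertrophic cartilage. The signal of 131 for Col4a1 there was close to the floor of 100.5, so the size of this ratio is uncertain. The ratio of P3h2 to Col4a2 was 15.1-fold higher, and that of P3h2 to Col2a1 6.25-fold higher. Col4a5 (-1.51) and Col4a6 (-1.22) were lower as well, each by less in a second probe set (-0.90 and -0.49). Col4a6 was also close to the floor on the Columnar/Hypertrophic array (125). The endothelial markers, whose cells lay down such basement membranes, were 1 of 6 above the floor, with summed signals of 269 on the Columnar/Hypertrophic array and 362 on the Round array. Plod2 and type I collagen also parted, with a ratio of Plod2 to Col1a1 3.81-fold higher in Columnar/Hypertrophic cartilage. That ratio rests on the brighter Plod2 probe set and on Col1a1, which is also on the list of fibrous tissue markers. The ratio of Plod2 to Col2a1 was 1.39-fold higher.

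Other genes known to respond to low oxygen were compared with P4ha1, P4ha2, Plod1 and Plod2, which ranged between -0.26 and 0.66. Of 15 measured, 2 were lower in Columnar/Hypertrophic cartilage by 2-fold or more and 0 higher, against 6.33% and 4.27% of all genes. The median was 0.18 (-0.037 after lowess centring). Car9, a carbonic anhydrase gene, had 943 on the Columnar/Hypertrophic array and 4748 on the Round array, 5.03-fold lower. Adm, the adrenomedullin gene, lay below the floor in Columnar/Hypertrophic cartilage (71.7) and had 299 in Round cartilage, at least 2.98-fold lower, while a second probe set gave -0.67. The 4 hydroxylase genes and 13 of the 15 other genes thus lay within 2-fold, as did most genes on these arrays. The 15 were not all level, since Egln3 (-0.96) and Vegfa (-0.90, and -0.65 by its other probe set) were just within 2-fold lower. As scaled, 9 of the 15 lay above 0.

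**Figure D4:**
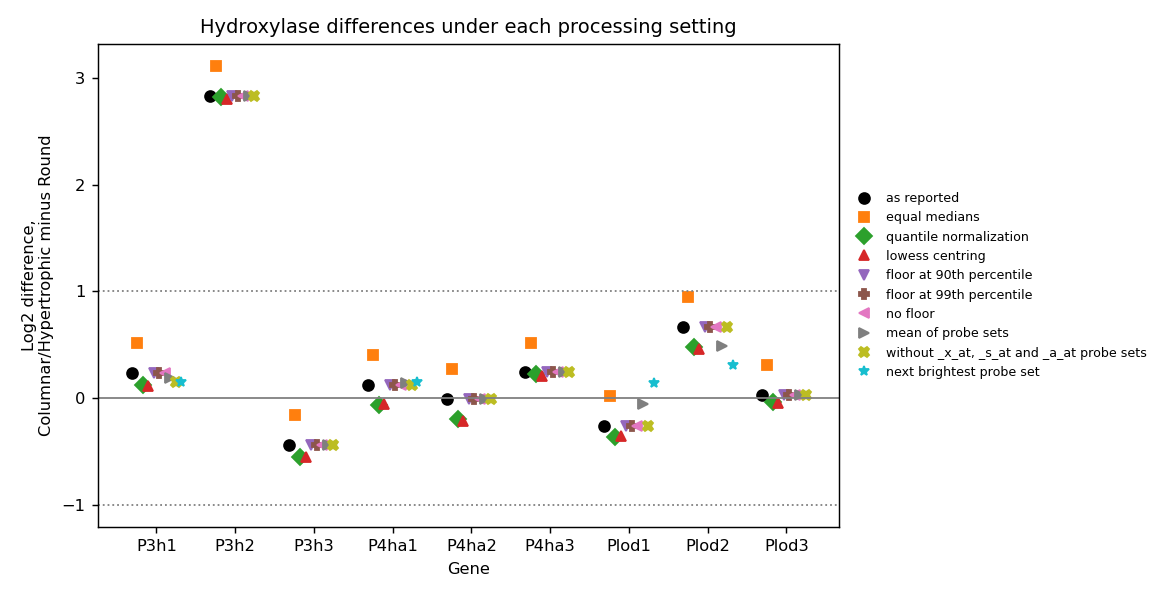
Log2 difference (vertical, Columnar/Hypertrophic minus Round) of the 9 hydroxylase genes (horizontal) as reported (black circles) and under 9 other processing settings (coloured symbols), with dotted lines at 2-fold. P3h2 stays between 2.80 and 3.11, whereas P4ha1, P4ha2, Plod1 and Plod3 have values on both sides of 0.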

How the data were processed

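RNA of 2 pooled cartilage preparations was hybridised as biotin-labelled cRNA to 1 Affymetrix mouse array each. The deposited values were intensities, 1 linear signal per probe set, and the submitters' processing notes name MAS5, with no version. RMA, the method named in the study's text, yields log values, whereas the deposited values were linear, and their trimmed means (2% removed at each end) were 499.8 and 499.9, as MAS5 scaling gives. MAS5 values of dim genes are noisy, and scaling to 1 mean assumes equal total signal.

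Gene symbols of probe sets came from GEO's platform annotation (34945 with 1 symbol, 932 with several, 9160 unnamed here, 64 controls), and 34741 matched RefSeq genes (GRCm38.p6). For each gene the probe set naming it alone with the highest mean log2 signal was used, called the brightest. The floor was the 95th percentile over 87 chemosensory receptor probe sets on both arrays. Lower signals were raised to the floor before log2 values were taken. Where 1 of the 2 signals was raised, the difference is a bound. Genes of like signal were those within 0.5 log2 units of mean signal. Lowess centring used a span of 0.3.

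With 1 array per group no test was made, and a 2-fold rule was used to count genes. All 9 hydroxylase genes with every probe set were named, and, of each related list, the genes past 2-fold, the known complex partners, the main collagen substrates and Tmem38b. Serpinh1, Colgalt1, Colgalt2, Egln3, Vegfa, Slc23a1, Slc23a2, Col6a3, Lum, Ibsp, Mmp13, Tnnt3, Acta1, Ckm, Lyz2, Cd68 and Csf1r were named outside this rule. The genes and lists were chosen with earlier results of these data known. Alternatives were 3 scalings, 2 other floors, no floor and 3 other choices of probe set. The gene-level code was tested on simulated data. Python 3.11.15, pandas 2.3.3, numpy 2.4.6 and statsmodels 0.14.6 were used.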

Additional observations from a re-analysis of the deposited data

How the results depend on the processing

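Over 9 alternatives the differences of the 9 hydroxylase genes took 76 values, of which 75 stayed within the probe set SD of 0.37 over all signals. The exception was Plod1, at a bound of 0.15 by its next brightest probe set, which lies near the floor. With the next brightest probe set, which exists for 4 of the 9 genes, 0 were at least 2-fold higher, since P3h2 has none. P3h2 was past 2-fold under each of the 8 alternatives that gave it a value, but only the 3 scalings could change it. The 2 other floors and no floor left all 9 genes as reported, since their brightest probe sets lay above each floor. The choices of probe set could not move the 5 genes with 1 probe set. Many of the 75 values therefore stayed by design. Equal array medians raised the median of all genes by 0.27, and the counts of all genes became 934 higher and 409 lower, against 498 and 739. The next brightest probe set, tested on fewer genes, gave 248 higher and 315 lower, no floor gave 1166 lower, and the mean of probe sets 490 lower. Of 89 list medians under alternatives, 86 stayed within that SD, and the next brightest probe set moved the other 3, to 0.023 for processing and crosslinking genes, -1.80 for collagens of fibrous tissue and bone and -0.25 for osteogenesis imperfecta genes. No paired analysis was possible because each group is 1 array. The 2 arrays cannot show the spread between embryos, and P3h2 rests on 1 probe set.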

Other observations

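Of 11 other dioxygenase genes whose enzymes use the same cofactors, 8 lay under 0, where the median of all genes also lay. Of the 11, 1 was lower by 2-fold or more and 0 higher, against 6.33% and 4.27% of all genes. Their median was -0.26 (-0.20 after lowess centring, but 0.019 with equal array medians), against -0.053 for all genes. That gene was P4htm, an ER transmembrane prolyl hydroxylase, with 290 on the Columnar/Hypertrophic array and 588 on the Round array (-1.02 by each of its 2 probe sets, -0.91 after lowess centring). Egln3, a prolyl hydroxylase of HIF proteins that HIF itself induces, had 702 on the Columnar/Hypertrophic array and 1370 on the Round array (-0.96, and -0.91 by its other probe set).

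Genes that supply ascorbate, iron and 2-oxoglutarate had a median of 0.22 over 13 measured. It was 0.24 after lowess centring and 0.50 with equal array medians, but 0.084 with the mean of probe sets and 0.10 with the next brightest probe set. At the 2-fold rule 0 were higher and 1 lower, against 4.27% and 6.33% of all genes. The lower gene was the glucose and dehydroascorbate transporter gene Slc2a3, 3.41-fold lower with 338 on the Columnar/Hypertrophic array and 1153 on the Round array. The ascorbate transporter gene Slc23a2 had 513 on the Columnar/Hypertrophic array and 460 on the Round array (0.16, but -0.22 by its other probe set), and Slc23a1 was under the floor on both.

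Among other genes mutated in osteogenesis imperfecta, 16 were measured. At least 2-fold higher was 1 and lower were 3, against 4.27% and 6.33% of all genes. Sp7, the transcription factor osterix of osteoblasts and hypertrophic chondrocytes, had 1940 on the Columnar/Hypertrophic array and 170 on the Round array, 11.4-fold higher. Serpinf1, encoding PEDF, had 463 on the Columnar/Hypertrophic array and 2375 on the Round array, 5.13-fold lower. Col1a1 and Tent5a were 2.40-fold and 2.07-fold lower. Tmem38b, the TRIC-B gene of the study, had 486 on the Columnar/Hypertrophic array and 341 on the Round array (0.51), but 2 other probe sets gave -0.49 and -0.23, so its direction was not settled.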
